A study of Homo sapiens with 131 samples.

Results

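Replication-dependent histone genes make the H1, H2A, H2B, H3 and H4 proteins that package newly copied DNA. Their mRNAs mostly lack a poly(A) tail and end instead in a stem-loop that is bound by SLBP, the stem-loop binding protein, which takes part in their processing, translation and decay. Their RNA is made in S phase and is removed when DNA synthesis stops. HAP1 is a near-haploid human cell line of leukaemic origin, so an unreplicated locus is present in 1 copy and a replicated locus in 2 copies.

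The histone-RNA rich and histone-RNA poor cells were the 14 highest and the 14 lowest of 56 mid-S HAP1 cells when ranked by histone RNA. For each cell, the TPM values (transcript abundance per length, scaled to a common total in each cell) of the 65 genes named as replication-dependent H1, H2A, H2B, H3 or H4 genes were summed. The other 28 cells formed the middle of the ranking. Single cells were sorted from mid-S phase, without any treatment, and scRR-seq gave a DNA library and a total RNA library from every cell. All cells came from 1 biological experiment, so the unit of every test below is the cell, and each p-value covers only the spread between cells of that experiment. The ranking used the histone RNA values themselves, so those values are given as a description without a test. The tests concern the other genes, the copy state of the DNA and the technical measures.

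The stem-loop is the feature that all ranked genes shared. In hg38, each of the 65 genes held a histone stem-loop motif of 16 bases within the 100 bases after its stop codon, beginning 23 to 68 bases after it. The same search on the sense strand found the motif in 72 of 19924 protein-coding genes (0.361%), and the 7 that were not ranked were also histone genes: H1-6, H2AW, H2AX, H2BU1, H3-4, H3-2 and H4-16. The 65 genes carried 10 versions of the motif, of which 1 was shared by 38 genes. The versions found in the 12 most abundant ranked genes are shown on the sense strand with the 16-base stem-loop in capitals, from H4C3 at chr6:26104312-26104337 (+), H4C14 at chr1:149833027-149833052 (+), H2BC12 at chr6:27146361-27146386 (-) and H2AC18 at chr1:149842218-149842243 (-).
H4C3: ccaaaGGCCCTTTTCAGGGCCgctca
H4C14: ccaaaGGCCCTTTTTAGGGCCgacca
H2BC12: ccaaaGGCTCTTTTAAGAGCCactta
H2AC18: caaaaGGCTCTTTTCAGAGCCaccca
The H2AC18 version was also that of H2AC12, H2AC6, H2AC17, H2BC18, H1-2 and H1-4, and the H2BC12 version was also that of H2BC4 and H2BC5.

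The histone sum was continuous across the 56 cells, from 53.1 to 1796 TPM with a median of 211.7 TPM. In the rich cells the lowest, median and highest sums were 268.3, 338.6 and 1796 TPM, and in the poor cells they were 53.1, 116.3 and 143.5 TPM. At the upper edge, the last rich cell had 268.3 TPM and the first middle cell 266.7 TPM. At the lower edge, the last middle cell had 146.3 TPM and the first poor cell 143.5 TPM, so neither edge lay at a gap. The 2 cells with the most histone RNA, at 1796 and 903.4 TPM, stood apart from the third cell in the ranking, which had 498.5 TPM. Cells numbered up to 65 and later cells, called here the first and second library sets, differed in technical measures, and they were found from the values, not from a label. The mitochondrial share of TPM was 4.98 to 18.3% in the 29 cells of the first set and 2.57 to 5.55% in the 27 cells of the second. The rich group held 6 cells of the first set and 8 of the second, and the poor group held 7 of each (p = 1, Fisher's exact test, two-sided).

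**Figure D1:**
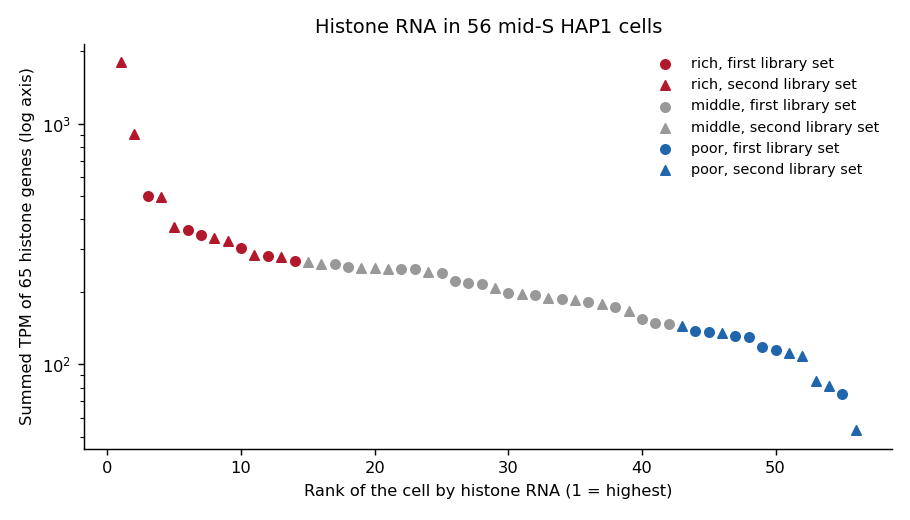
Summed TPM of the 65 ranked histone genes (log axis) against the rank of each of the 56 cells. Each point is 1 cell, colored by group and shaped by library set. The values fall without a step at either group edge, and the 2 highest cells lie above all others.

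Of the 65 ranked genes, 51 had a TPM above 0 in at least 1 of the 56 cells and 14 were listed at 0 in all of them. Only 13 genes were above 0 in over 50% of the cells. A rich cell had 24.1 ± 7.10 ranked genes above 0 and a poor cell 13.2 ± 3.40 (mean ± SD, n = 14 each). In the 28 compared cells, 43 genes had a higher mean in the rich cells, 6 had a higher mean in the poor cells and 16 were at 0 in both groups. The 6 exceptions were H2AC20, H2AC11, H4C9, H2BC11, H2BC6 and H4C6, each with a mean of at most 3.43 TPM in either group. H2BC11 was at 0 in all 14 rich cells and averaged 3.15 TPM in the poor cells, although it was above 0 in only 7 of the 56 cells.

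H4C3, an H4 gene at chr6:26103933-26104337 (+, hg38), was the most abundant and gave 25.6% of all histone TPM. Its lowest, median and highest values were 21.4, 91.9 and 424.7 TPM in the rich cells and 0, 18.8 and 57.5 TPM in the poor cells. The groups overlapped in H4C3, with 2 rich cells, at 21.4 and 55.5 TPM, below the highest poor cell. The first of these, cell 18, had 153.7 TPM of H3 transcripts, the highest value of that class. H4C3 averaged 42.6 TPM in the first library set and 89.8 TPM in the second. H2AC18, an H2A gene on chromosome 1, ranged from 0 to 314.0 TPM around a median of 26.1 TPM in the rich cells, and from 0 to 28.2 TPM around 6.23 TPM in the poor cells. H2BC12, an H2B gene, was above 0 in 13 of 14 rich cells with a median of 36.3 TPM, and in 2 of 14 poor cells. Among the 12 most abundant genes, H2BC12 had the largest gap between the groups in the number of cells above 0. H2BC4 was likewise above 0 in 11 rich and 3 poor cells, and H2AC6 in 11 rich and 4 poor cells.

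H2AC12 had medians of 20.9 TPM in the rich cells and 5.96 TPM in the poor cells, with a highest value of 144.0 TPM in the cell second in the ranking. H4C14, the second H4 gene of this group, was above 0 in all 14 rich cells with a median of 17.96 TPM and in 8 poor cells with a median of 1.41 TPM. Among the linker histones, which bind the DNA between nucleosomes, H1-4 had medians of 9.18 and 2.30 TPM and was above 0 in 12 rich and 8 poor cells. H1-2 had medians of 5.43 and 0.43 TPM, in the same order. The remaining genes among the 12, H2AC17, H2BC5 and H2BC18, had medians of 4.19 to 11.8 TPM in the rich cells and of 0 to 0.92 TPM in the poor cells. The length listed for a gene is its annotated span with introns, which is 29685 bases for H2BC18 and 14972 bases for H2AC6 but 405 bases for H4C3. Whether the authors divided by this length was not tested. H3C14 and H3C15 had the same TPM in every cell, so these loci cannot be told apart.

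**Figure D2:**
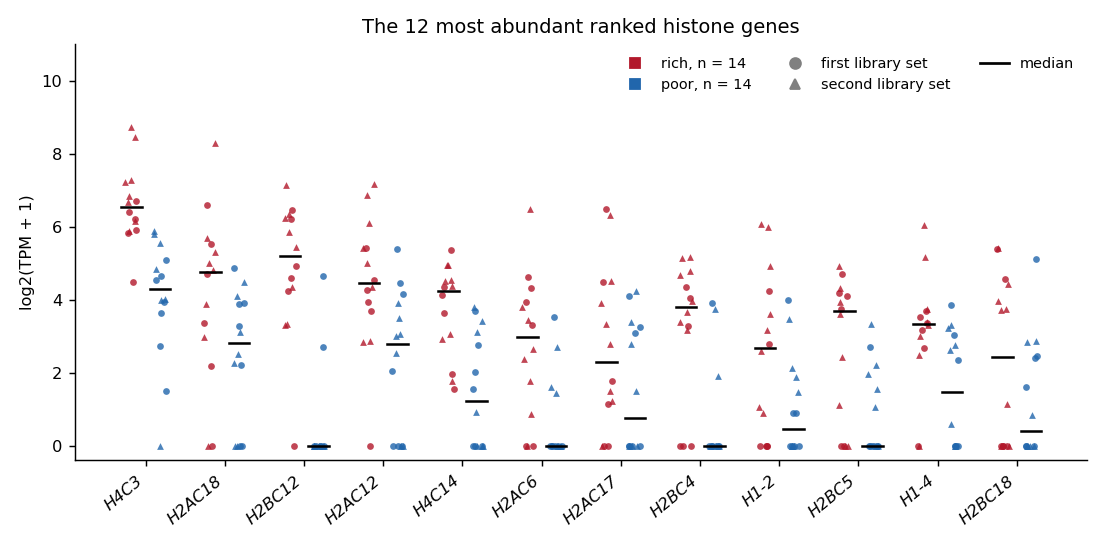
log2(TPM + 1) of the 12 ranked histone genes with the highest mean, in the 14 rich (red) and 14 poor (blue) cells. Each point is 1 cell, shaped by library set, and the black bar is the median; in H2BC12 most poor cells lie at 0.

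The medians were higher in the rich cells in all 5 histone classes and all 3 gene clusters, with overlap of the groups in every class. Each class and cluster is a part of the sum that ranked the cells, so these values describe the ranking. In the rich and poor cells, the class medians were 120.8 and 33.9 TPM for H4 and 86.7 and 41.6 TPM for H2A. They were 94.5 and 11.9 TPM for H2B, 24.3 and 13.7 TPM for H3, and 14.8 and 3.98 TPM for H1. H1 ran from 0 to 130.6 TPM in the rich and from 0 to 22.1 TPM in the poor cells. H4 genes gave 34.4% of the histone TPM in the rich cells and 32.7% in the poor cells, and H2A genes gave 28.2% and 32.9%. H2B genes gave 21.7% and 14.7%, H3 genes 9.49% and 14.02%, and H1 genes 6.14% and 5.66%. These shares pool the TPM of the cells of a group, so the rich cell at 1796 TPM weighs most in them. The 33 genes of the proximal chromosome 6 cluster, chr6:25726063-26285638, summed to a median of 196.5 TPM in the rich cells (131.3 to 932.2) and 49.0 TPM in the poor cells (20.0 to 94.6). Here the groups did not overlap. The 21 genes of the distal chromosome 6 cluster, chr6:27125897-27893891, had medians of 100.1 and 27.2 TPM, and the 11 chromosome 1 genes had medians of 84.9 and 28.03 TPM. In both of these clusters 9 of 14 rich cells lay above the highest poor cell.

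The ranked genes varied only loosely together from cell to cell. Over the 78 pairs of the 13 genes above 0 in over 50% of the cells, Spearman's rho had a median of 0.141 across 56 cells, and 60 pairs were above 0. The identical genes H3C14 and H3C15 were both among the 13, and both were counted in the histone sum. The summed TPM of the proximal and distal chromosome 6 clusters had a rho of 0.359, and each had a rho of 0.177 to 0.187 with the chromosome 1 cluster. All genes of a cell share 1 library and 1 scaling, so these values are descriptions. A ranking by 1 set of clusters was also set beside the RNA of the other, as a description chosen after the values had been seen. When the 14 highest and 14 lowest cells were chosen by the 54 chromosome 6 genes alone, the summed chromosome 1 genes had medians of 71.4 and 34.6 TPM. When cells were chosen by the chromosome 1 genes, the chromosome 6 genes had medians of 164.4 and 133.0 TPM. The mean differences on the log2(TPM + 1) scale were 0.71 ± 0.46 and 0.66 ± 0.37 (SE), in the same order. Without the 2 cells with the highest histone sum they were 0.48 ± 0.43 and 0.44 ± 0.31 (SE).

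Of the 7 histone genes outside the ranking that held the stem-loop motif, H2AX and H2AW were tested. H2AX, which encodes the variant phosphorylated at DNA breaks, was the only one of the 7 above 0 in all 56 cells. Its medians were 86.1 TPM in the rich and 66.7 TPM in the poor cells, a log2 difference of 0.23 ± 0.28 (SE). This difference was -0.31 ± 0.43 in the first library set alone and 0.62 ± 0.31 in the second (SE). H2AW had medians of 3.07 TPM in the rich and 8.14 TPM in the poor cells, a log2 difference of -0.46 ± 0.63 (SE). H2BU1, H3-2, H4-16, H3-4 and H1-6 were above 0 in 28, 23, 7, 3 and 1 of the 56 cells and were too sparse for the test.

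SLBP, which binds the stem-loop, had widely overlapping values in the groups. The lowest, median and highest SLBP values were 39.5, 120.9 and 319.9 TPM in the rich cells and 38.6, 109.7 and 203.1 TPM in the poor cells. Of the 14 rich cells, 2 lay above the highest poor cell. The log2 difference was 0.23 ± 0.28 (SE, adjusted p = 0.994, limma), so SLBP, although a marker given for these cells, was not shown to differ with the histone RNA. HAP1 descends from a leukaemia with a BCR-ABL1 fusion, and BCR and ABL1 were above 0 in 53 and 49 of the 56 cells. The blood markers PTPRC and CD34 were above 0 in 1 and 27 cells, the latter with a highest value of 1.49 TPM.

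Among all other genes, 13529 had a TPM above 0 in over 50% of the 56 cells and were tested, and 1 passed an adjusted p of 0.05 in limma (0.00739% of the genes tested). No gene was lower in the rich cells at that threshold. At an unadjusted p of 0.05, 376 genes were higher in the rich cells (2.78%) and 256 were lower (1.89%), together 4.67% of the genes tested. The median log2 difference over all genes was 0.03. With the Wilcoxon rank-sum test no gene passed after adjustment, and 312 higher and 232 lower genes passed unadjusted.

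The gene that passed was ANKRD42, which encodes an ankyrin repeat protein and lies at chr11:83193712-83260694 (+, hg38). It was above 0 in 14 of 14 rich cells, with lowest, median and highest values of 1.63, 15.3 and 33.8 TPM. In the poor cells it was above 0 in 4 of 14, at 0.42, 0.69, 12.8 and 19.9 TPM. The groups overlapped only through the last 2 of these cells. The difference on the log2(TPM + 1) scale was 2.97 ± 0.53 (SE, adjusted p = 0.0293), with 3.28 in the first library set and 2.75 in the second. The call was lost without the 2 highest cells (adjusted p = 0.133), with 10 cells a group (0.848) and in the fit over all 56 cells (0.498). ANKRD42 also had the highest Spearman's rho with the histone sum over the 56 cells, at 0.546, among the genes tested. DDAH1, SCAF4, FMR1, MYO6 and EVI5L followed with a rho of 0.473 to 0.418, as a description.

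The other genes with the lowest p in the rich direction did not pass the adjusted threshold. FRRS1, a ferric reductase-like membrane protein, had medians of 9.43 TPM in the rich and 0.48 TPM in the poor cells, a log2 difference of 2.10 ± 0.48 (SE, adjusted p = 0.683, limma). ITPR1, the inositol trisphosphate receptor that releases calcium from the endoplasmic reticulum, had medians of 26.5 and 0 TPM. AP4B1, a subunit of the AP-4 adaptor complex, had medians of 27.4 and 0.44 TPM. ABITRAM, CA2, the carbonic anhydrase gene, EVI5L and FASTKD3, a mitochondrial RNA-binding protein, completed the 8 genes. All 8 had log2 differences of 1.69 to 3.06 and the same sign in both library sets. Each of them was at 0 in at least 4 of the 14 poor cells.

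Genes lower in the rich cells included more abundant transcripts. CLNS1A, a chaperone of spliceosomal Sm proteins, had lowest, median and highest values of 132.0, 218.0 and 308.1 TPM in the rich cells and 213.6, 297.3 and 547.1 TPM in the poor cells. Its log2 difference was -0.66 ± 0.17 (SE, adjusted p = 0.892, limma) and it was measured in all 28 cells. EXOC7, a subunit of the exocyst, had medians of 27.9 TPM in the rich and 88.1 TPM in the poor cells, with a log2 difference of -1.96 ± 0.56 (adjusted p = 0.994). In the fit of all 56 cells on the log2 histone sum, EXOC7 was the one gene that passed, with a slope of -1.20 per doubling of the sum (adjusted p = 0.0109). POLI, a DNA polymerase that copies past lesions, had medians of 6.04 and 38.4 TPM, and ZBTB17, the transcription factor MIZ-1, of 2.195 and 40.5 TPM. NID2, ACTN1, IRF1 and TPT1-AS1 were the other genes of the 8, with log2 differences of -2.12 to -1.06. TPT1-AS1 is antisense to another gene, and reads of the pair cannot be told apart where strand was not used in counting, which the sources used here do not state.

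**Figure D3:**
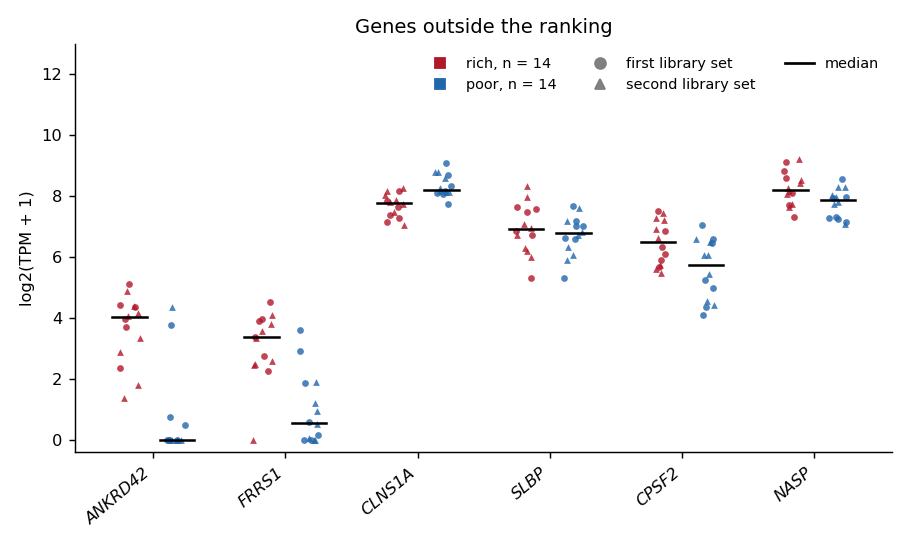
log2(TPM + 1) of 6 genes outside the ranking in the 14 rich (red) and 14 poor (blue) cells. Each point is 1 cell, shaped by library set, and the black bar is the median; ANKRD42 passed the adjusted threshold, and the groups overlap in all 6 genes.

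The genes that act on histone RNA and protein were examined as lists. Histone mRNA processing and transcription factors had 15 of 16 members tested, of which 12 were higher in the rich cells, 1 passed an unadjusted p of 0.05 and none passed the adjusted threshold. These are 80% and 6.67% of the list, beside 53.2% of all genes tested higher in the rich cells and 4.67% past an unadjusted p of 0.05. The median log2 difference of the list was 0.24, beside 0.03 over all genes. The member that passed unadjusted was CPSF2, a subunit of the complex that cleaves histone pre-mRNA, with medians of 89.7 TPM in the rich and 54.3 TPM in the poor cells, and a log2 difference of 0.88 ± 0.33 (p = 0.0107, unadjusted, limma). NPAT, which drives histone transcription, had medians of 38.4 and 28.3 TPM and a log2 difference of 0.21 ± 0.48 (SE). CASP8AP2, which is part of the histone locus body, went the other way at -0.65 ± 0.37 (SE).

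Of 19 histone chaperones, 13 were higher in the rich cells, 2 at an unadjusted p of 0.05, with a median log2 difference of 0.07. These are 68.4% and 10.5% of the list, beside 53.2% and 4.67% of all genes tested. NASP, which holds soluble H3 and H4, had lowest, median and highest values of 159.4, 297.8 and 603.5 TPM in the rich cells and 135.1, 235.7 and 383.3 TPM in the poor cells, a log2 difference of 0.50 ± 0.20 (SE, p = 0.0193, unadjusted, limma). SUPT16H, a subunit of the FACT complex, had medians of 187.9 and 160.2 TPM and a log2 difference of 0.50 ± 0.22 (p = 0.0302, unadjusted, limma). CHAF1A and CHAF1B, subunits of the chromatin assembly factor that works at replication forks, were at -0.18 ± 0.35 and -0.23 ± 0.37 (SE). Of 10 variant histone genes tested, among them H2AX with its stem-loop motif, none passed even unadjusted, and the list median was 0.04. H3-3A was the most abundant, with medians of 1822 TPM in the rich and 1310 TPM in the poor cells and a log2 difference of 0.31 ± 0.18 (SE).

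Replication and cell cycle genes did not pass the adjusted threshold either. Of 43 genes of the replication machinery, 21 were higher in the rich cells (48.8%, beside 53.2% of all genes tested), with a list median of -0.01. Only 1 passed an unadjusted p of 0.05 (2.33%, beside 4.67% of all genes tested). That gene was RPA2, a subunit of the single-strand DNA binding complex, with medians of 142.0 and 91.7 TPM and a log2 difference of 0.72 ± 0.24 (p = 0.00544, unadjusted, limma). PRIM1, the primase subunit that starts new strands, went the other way at -0.60 ± 0.34 (SE). Of 15 G1/S regulators, 8 were higher in the rich cells (53.3%) and 1 passed an unadjusted p of 0.05 (6.67%), beside the same 53.2% and 4.67%. This was CDKN1A, the gene of the cell cycle inhibitor p21, with medians of 0.85 TPM in the rich and 12.4 TPM in the poor cells. CDKN1A had a log2 difference of -1.70 ± 0.67 (p = 0.0159, unadjusted, limma). It was above 0 in 7 rich and 10 poor cells.

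Genes of G2 and mitosis were more often higher than lower in the rich cells, without a call. Of the 30 genes of this list, 25 were higher in the rich cells (83.3%, beside 53.2% of all genes tested), with a median log2 difference of 0.24, and 4 passed an unadjusted p of 0.05 (13.3%, beside 4.67%). These were BUB1, a spindle checkpoint kinase (medians of 130.03 and 75.8 TPM), NUSAP1, a spindle protein (397.9 and 327.8 TPM), HMMR (36.8 and 20.5 TPM) and TOP2A, the topoisomerase of mitotic chromosomes (750.1 and 533.5 TPM). Their log2 differences were 0.94 ± 0.38, 0.62 ± 0.25, 1.17 ± 0.52 and 0.45 ± 0.20 (SE). The markers given for cells past S phase, CCNB1, CDC20, PLK1 and AURKA, were at -0.18 ± 0.22, 0.13 ± 0.33, 0.26 ± 0.27 and 0.52 ± 0.53 (SE), and the G1/S markers CCNE1, CCNE2, CDC6 and MCM5 were at -0.23 ± 0.76, -0.65 ± 0.74, 0.24 ± 0.37 and -0.41 ± 0.24 (SE). The part of such cells in the list's values was not tested. The genes of a list vary together, so the count of signs carries no p.

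No gene of the remaining lists passed the adjusted threshold. In the checkpoint list 8 of 13 were higher in the rich cells (61.5%, beside 53.2% of all genes tested). An unadjusted p of 0.05 was passed by 1 (7.69%, beside 4.67%). This was ATRIP, the partner of the ATR kinase, at 1.57 ± 0.65 (p = 0.0207, unadjusted, limma). None of 9 short non-coding RNAs, 7 long non-coding RNAs, 15 mitochondrial genes or 15 stress and early response genes passed an unadjusted p of 0.05. RN7SK and RN7SL1, abundant RNAs without a poly(A) tail like the histone mRNAs, were at 0.62 ± 0.74 and -0.21 ± 0.24 (SE). RN7SK was at 0.01 TPM in 1 poor cell, and its log2 difference was -0.22 without that cell, with medians of 3339 TPM in the rich and 4044 TPM in the poor cells. Of the 15 mitochondrial genes, 12 were lower in the rich cells, with a median of -0.09, and 20% were higher, beside 53.2% of all genes tested. With the library set as a term, however, 9 were higher (60%, beside 52.9% of all genes, median 0.04). In the second set alone 12 were higher (80%, beside 54.4% of all genes, median 0.14). The list medians were 0.05 for the G1/S regulators, 0.06 for the checkpoint genes, 0.31 for the short non-coding RNAs (-0.0044 in the first set alone and -0.23 in the second), 0.01 for the long non-coding RNAs, and 0.01 for the stress genes.

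**Figure D4:**
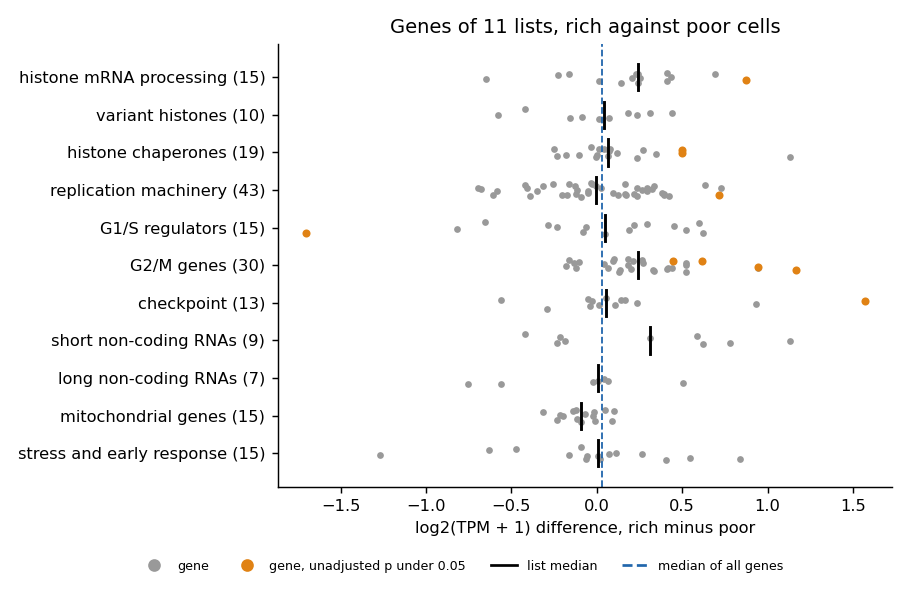
Difference in log2(TPM + 1) between the rich and poor cells for every tested gene of 11 lists, with the number tested in brackets. Each point is 1 gene, orange at an unadjusted p under 0.05, the black bar is the list median and the dashed line the median of all 13529 genes; no gene of these lists passed the adjusted threshold.

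The replication state was compared through the DNA of the same cells, in which each 40-kb bin was called 1-copy or 2-copy. The replication score, the share of called bins at 2 copies, ran from 39.7 to 67.2% over the 56 cells. The cells were sorted from mid-S phase, which the paper defines by a range of this score. The comparison of scores therefore covers only that part of S phase. The lowest, median and highest scores were 40.1, 55.6 and 67.2% in the rich cells and 39.7, 50.8 and 66.3% in the poor cells. The groups covered the same range, and their means of 53.7 ± 8.63% and 51.6 ± 8.52% (SD, n = 14 each) differed by 2.16 ± 3.24 percentage points (SE, p = 0.503, permutation test, two-sided). Within the first library set the difference was -1.01 points (p = 0.769, exact permutation test) and within the second 3.71 points (p = 0.392, exact permutation test). The second set also had the higher scores, at 56.4 ± 7.07% against 50.7 ± 7.75% (SD, n = 27 and 29). Across all 56 cells the histone sum and the score had a Spearman's rho of 0.101.

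The copy state of the histone genes themselves was known for the 54 on chromosome 6, because chromosome 1 was left out of the calls. In the poor cells, all called histone genes were at 1 copy in 14 of 14 cells. In the rich cells, 4 of 14 had some histone genes at 2 copies, at 11.1% of the genes in cell 38, 37.7% in cells 66 and 73, and 57.4% in cell 91. The mean share was 10.3 ± 19.2% in the rich cells and 0 in the poor cells (SD, n = 14 each, p = 0.0996, permutation test, two-sided). The difference was 1.85 points in the first library set and 16.6 points in the second, and 6.66 points without the rich cell 91. As a count of cells, 4 of 14 against 0 of 14 gave p = 0.0978 (Fisher's exact test, two-sided). The difference did not pass 0.05 in either form. Without the 2 cells with the highest histone sum, the p was 0.0333 (permutation test, two-sided), and both of these rich cells had every called histone gene at 1 copy. With cells ranked by the mean log2 level of the histone genes, the difference was 3.10 points (p = 0.664, permutation test).

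The genes at 2 copies all lay in the proximal cluster. In 10 of the 56 cells at least 1 histone gene was at 2 copies, always among the 33 proximal genes, while the 21 distal genes were at 1 copy or without a call in all 56 cells. Of these 10 cells, 7 were in the upper 28 of the ranking and 3 in the lower 28. Their histone sums ran from 147.9 to 494.2 TPM, within the range of the 46 cells with no called histone gene at 2 copies, 53.1 to 1796 TPM. Their scores ran from 46.0 to 67.2%. The 2 cells with the most histone RNA had scores of 57.5 and 43.7%.

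**Figure D5:**
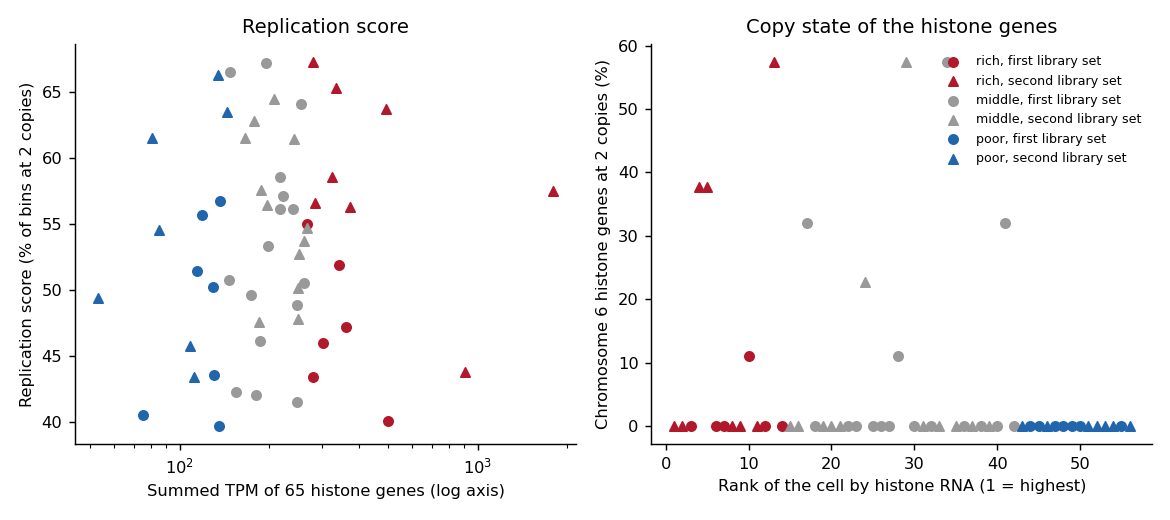
Left, the replication score of each of the 56 cells (share of called 40-kb bins at 2 copies, in %) against its histone sum in TPM (log axis). Right, the share of the chromosome 6 histone genes at 2 copies in %, against the rank by histone RNA; all poor cells lie at 0, and 4 rich and 6 middle cells lie above 0.

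Genome-wide, no bin differed between the groups after adjustment among 56713 bins tested by Fisher's exact test (0%). At an unadjusted p of 0.05, 557 bins passed (0.982%), 457 with more 2-copy calls in the rich cells (0.806%) and 100 with more in the poor cells (0.176%). The share at 2 copies was higher in the rich cells in 21719 of the bins tested and higher in the poor cells in 15950. The remaining bins had equal shares and could not pass, but they count in these percentages and in the adjustment. The lowest p was 0.000341 (Fisher's exact test, two-sided, adjusted p = 1). Neighboring bins can share a replicating domain and are not independent. By chromosome, the mean share of bins at 2 copies was higher in the rich cells in 15 of 20 chromosomes, or in 8 of 20 once the replication score of the cell was subtracted. The differences ran from -3.58 points on chromosome 19 to 4.71 points on chromosome 3, none past the adjusted threshold (lowest adjusted p = 0.921, permutation test). Chromosome 6 differed by 1.54 points.

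None of the technical measures differed between the groups after adjustment. The mitochondrial share was 6.83 ± 4.51% in the rich and 7.75 ± 5.25% in the poor cells, and the number of genes with at least 1 TPM was 13597 ± 836.5 and 13424 ± 628.7 (SD, n = 14 each). The 50 most abundant genes took 20.8 ± 2.10% and 21.9 ± 2.02% of the TPM. Bins without a call made up 0.79 ± 0.78% and 0.57 ± 0.11%, with the highest value, 3.34%, in the rich cell 91. The lowest adjusted p among these measures was 0.776 (permutation test). For its spliced and unspliced comparison, the paper reduced the HAP1 RNA reads to a common number per cell. It does not state whether the TPM values were made from those reads. The amount of RNA in each cell and the depth behind the TPM values are not known here. A larger histone share of the RNA and more histone RNA per cell therefore cannot be told apart.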

How the data were processed

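A DNA and an RNA library were joined as 1 cell by their cell number. Of 63 mid-S cells in the labels, 56 are in the tables and were used; 5 G1 DNA libraries were not analysed here. The authors collected RNA from the supernatant, which holds mainly cytoplasmic RNA, and counted it with ramdaq on GENCODE annotation in hg38. The deposited TPM values were made by the authors and scale each cell to a common total, so the reads behind a value, and with them its counting error, are not known. The authors aligned DNA with BWA (0.7.17-r1188 in the submitters' processing notes), called 40-kb bins with AneuFinder and left out chromosomes 1, 15 and X. Their copy state is deposited as a score per bin and per gene, coded as 2-copy, 1-copy or no call. The deposited unspliced expected counts, gene-body reads less exon reads by the authors, were used only as a total per cell. The deposited spliced table was not used.

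Cells were ranked by summed TPM of the 65 histone genes, and the top and bottom 14 were compared. Genes above 0 in over 50% of the 56 cells were tested with limma 3.58.1 (R 4.3.3, mean-variance trend, no covariate) on log2(TPM + 1), a scale that understates changes of low genes, with Benjamini-Hochberg adjustment at 0.05. Single values were tested by permutation (100000 resamples, two-sided; exact with under 10 cells a group), and bins called in 80% of cells or more by Fisher's exact test (scipy 1.17.1). Methods were tested on simulated data, in which limma called 7 of 100 genes changed 2-fold and 36 of 100 genes changed 4-fold. In the same simulation 2 unchanged genes also passed the adjusted threshold, beside the 1 gene called in the real comparison. The members and gene lists were chosen with earlier results of these data known. Named genes were the 12 most abundant ranked genes, the 8 other genes with the lowest p in each direction (used where fewer than 5 passed), SLBP, genes of the histone lists that passed, up to 4 genes with the lowest p of each other list, and the 6 genes most alike to the histone sum. The further histone list members and the histone genes outside the ranking were chosen after their values were seen. Stem-loops were read from hg38 with GENCODE annotation of a later release, matched by gene ID or, where the ID had changed, by symbol. Alternatives covered the library set, the replication score, pseudocount, filters, rescaling, the Wilcoxon test, other group sizes and other rankings. Some results are not reported here.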

Additional observations from a re-analysis of the deposited data

Results flagged for a closer look

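The difference between rich and poor cells itself differed between the library sets in 1 of 13529 genes (limma, interaction of group and library set, adjusted p = 0.00576). This was RP11-212P7.3, a non-coding gene model at chr7:128455840-128493859 (+, hg38), with a change in log2 difference of -7.64 ± 1.22 (SE) from the first to the second set. In the first set it was above 0 in 6 of 6 rich cells, with a median of 28.6 TPM, and in 1 of 7 poor cells, at 20.3 TPM. In the second set it was above 0 in 3 of 8 rich cells, with a median of 0 and a highest value of 36.4 TPM, and in 7 of 7 poor cells, with a median of 24.9 TPM. The log2 differences were 4.05 and -3.59. At an unadjusted p of 0.05, 693 genes differed in this way (5.12% of the genes tested).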

How the results depend on the processing

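The comparison of other genes called 1 gene, ANKRD42, and the count was 0 with no filter on low values, a filter at 80% of cells (in which ANKRD42 was not tested), the Wilcoxon test, 10 cells a group, cells ranked within library sets, cells ranked by mean log2 level, without the 2 highest cells, and in either library set alone. It was 1 with the library set or the replication score as a term, a pseudocount of 0.1, rescaled TPM and 19 cells a group, and 1 in the fit over all 56 cells, there for EXOC7. The adjusted p of ANKRD42 ran from 0.00708 to 1, and its difference stayed positive in every fit that tested it. With no filter, 1019 of 32205 genes passed an unadjusted p of 0.05, against 632. The difference in replication score reversed to -1.01 points in the first library set. The difference in copy state was 12 points without the 2 highest cells (p = 0.0333, permutation test), and no other alternative for it passed 0.05. Bins, chromosomes and technical measures gave no call in any alternative run. Of the single genes, these changed sign without a call. In the first set alone they were NEAT1 (0.104), SNHG1 (-0.111), CDC20 (-0.461), H2AX (-0.307) and NPAT (-0.101), and in the second set alone RN7SK (-0.379), MT-CO1 (0.016), CCNE1 (0.826) and CHAF1B (0.238). Under the mean log2 ranking they were RNU4-2 (0.0762), CCNB1 (0.133), MCM5 (0.0682), H2AW (0.151) and CHAF1A (0.179), and under the ranking within sets MT-CO1 (0.0311), CCNE1 (0.197) and CHAF1A (0.125). With 19 cells a group they were PVT1 (0.0435), H2AW (0.233), NPAT (-0.0698) and CHAF1A (0.0832), and with 10 CCNE1 (0.451). In the fit over 56 cells they were CDC20 (-0.0145) and CCNE1 (0.00269), without the 2 highest cells SNHG1 (-0.00707), and without the poor cell with the lowest value RN7SK (-0.224). The causes were not tested. No paired analysis was possible because the rich and poor groups are different cells, and the replicate numbers in the labels only join the DNA and RNA library of 1 cell. The analyses without the 2 highest cells, within each set for genes, without the rich cell 91, without a poor cell for RN7SK, by crossed clusters and by counts of cells were added after seeing the data.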
